A study of Mus musculus with 4 samples.

Results

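Col4a1, Col4a2, Lama1, Lama5, Lamb1, Lamc1 and Nid1 encode subunits of the basement membrane, Sparc a glycoprotein that binds collagen, Col5a1 a chain of the fibrillar type V collagen, and Thy1 a glycoprotein held in the plasma membrane by a GPI anchor. These 10 genes were taken by symbol from a table of 19797 RefSeq gene symbols, in which each has 1 transcript. They were measured by RNA-seq of MC1-ZE7, one mouse embryonic stem (ES) cell line of strain MC1 (129S6/SvEvTac), grown in serum and LIF on gelatin with no feeder cells. Sorting by the fluorescent protein Emerald gave an Emerald-positive (Em+, high) fraction and an Emerald-negative (Em-) fraction, which the design sets against each other as Zscan4-positive and Zscan4-negative cells. Each fraction has 2 libraries of total RNA depleted of ribosomal RNA. Line, strain, medium and reporter are common to both fractions. The labels do not state whether libraries of the same fraction derive from separate cultures. The p-values therefore reflect library-to-library spread alone, and this may be technical.

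A basement membrane is a thin sheet of matrix under epithelia and around many other cells. Laminins, each assembled from an alpha, a beta and a gamma chain, form one of its networks, type IV collagen forms another, and nidogen binds to both. Laminin is among the first matrix proteins of the mouse embryo, and the endoderm that lines the yolk sac is known for making large amounts of laminin and type IV collagen.

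Library totals in the RefSeq table ran from 16468218 to 18953217 counts. The description field of each sample names the fraction opposite to its title, and groups follow the titles. Zscan4 transcripts, as counts scaled to library size (CPM), summed to 212 and 224 in Em+ against 1.81 and 2.27 in Em-. Naive ES cell markers were present in every library, with 10 of 10 tested and 6050 to 6800 CPM in sum. Of these edgeR called 1, Nanog, higher in Em+ (0.48 on the log2 scale, adjusted p = 0.0192). At an unadjusted edgeR p under 0.05, 2 were higher, Nanog included, and 3 lower. Beside them, 25.3% of all tested genes had such a p in either direction and 10.7% in the lower one. DESeq2 called 2 of the markers, 1 of them lower, and limma 0. Em+ replicate 2 stood apart: the ribosomal RNA gene Rn45s took 7.95% of its counts against 3.93 to 4.33% elsewhere, and 43.45% of the reads behind its FPKM (reads scaled to transcript length and library size) lay in RefSeq transcripts against 49.01 to 51.15%. The fractions were compared on CPM scaled by the TMM method of edgeR, and FPKM served to set one gene beside another.

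Upstream sequence is shown for 3 genes: Col5a1, the gene with a raised level for which a RefSeq promoter entry was at hand, and Lama5 and Nid1, basement membrane genes with no call, for comparison. Each stretch runs 5′ to 3′ on the strand of the gene, from 250 bases before the RefSeq start (GRCm38.p6). It ends at the last base before any exon that the GENCODE annotation gives for the gene itself. Exons of other genes were not checked, and the noncoding gene 2810430I11Rik (chr2:27882925-27887052) spans the whole Col5a1 stretch. Col5a1 lies on the plus strand at chr2:27886175-27886380, Lama5 on the minus strand at chr2:180225905-180226109 and Nid1 on the plus strand at chr13:13437352-13437550. Capitals mark the GC box GGGCGG and the CCAAT box CCAAT, each searched on both strands.
Col5a1: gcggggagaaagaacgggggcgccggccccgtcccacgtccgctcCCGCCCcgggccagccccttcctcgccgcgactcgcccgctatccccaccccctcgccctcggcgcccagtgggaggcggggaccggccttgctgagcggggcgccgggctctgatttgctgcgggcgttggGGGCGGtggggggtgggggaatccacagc
Lama5: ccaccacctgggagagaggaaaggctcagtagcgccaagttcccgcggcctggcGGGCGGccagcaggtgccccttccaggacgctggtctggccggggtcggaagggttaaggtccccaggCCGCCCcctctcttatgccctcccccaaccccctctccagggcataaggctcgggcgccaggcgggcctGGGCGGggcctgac
Nid1: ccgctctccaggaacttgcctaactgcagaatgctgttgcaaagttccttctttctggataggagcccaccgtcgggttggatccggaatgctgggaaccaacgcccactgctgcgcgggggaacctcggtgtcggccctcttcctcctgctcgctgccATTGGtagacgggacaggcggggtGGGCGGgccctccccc
The Col5a1 stretch holds 2 GC boxes and the Lama5 stretch 3, both with no CCAAT box, and the Nid1 stretch holds 1 of each. Their GC content was 77.7%, 71.7% and 63.8%, against a median of 52.4% for the 250 bases upstream of all promoters in the table. Over windows of 300 bases, 6 of the 7 genes with an entry held a GC box, 4 a CCAAT box and 0 the TATA box TATAAA. Among 32817 promoters of that length these shares were 35.6%, 37.4% and 13.6%. GC boxes were thus present upstream of the raised gene and of both others. A match is a description of letters and not of a bound site.

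All 10 genes passed the filter of a mean FPKM of at least 1 and were tested. Thy1 and Col5a1 rose in Em+ cells, by 1.85-fold and 1.80-fold, and the basement membrane genes among the 10 passed the test in neither direction. With the quasi-likelihood test of edgeR, adjusted over 12050 genes, 2 of the 10 were called higher, where 3.82% of all tested genes were, and 0 lower, where 0.822% were. DESeq2 and limma also called 0 lower, and 2 were lower at an unadjusted edgeR p under 0.05 (10.7% of all tested genes). In either direction, 4 of the 10 had an unadjusted p under 0.05, beside 25.3% of all tested genes. The libraries of the fractions did not overlap for 7 of the 10 genes, beside 59.4% of all tested genes. Of these, 2 were higher and 5 lower in Em+, beside 29.7% of all tested genes in each direction. With no filter on FPKM edgeR again called 2 of the 10, beside 5.95% of 19797 symbols. The median log2 fold change of the 10 was -0.06, beside 0.00 for all tested genes, whose 10th to 90th percentiles ran from -0.24 to 0.37. In bulk RNA, fewer cells with a transcript and less of it per cell cannot be told apart.

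**Figure D1:**
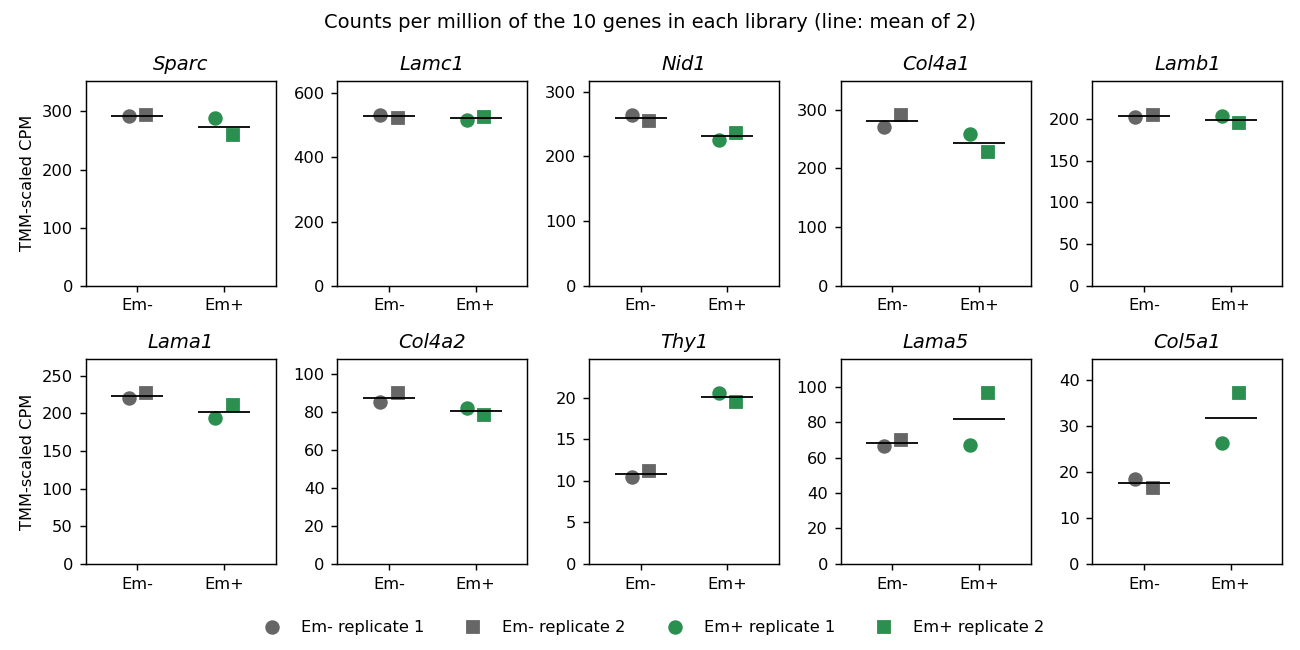
TMM-scaled CPM (vertical axis, from 0) of each of the 10 genes in the 2 Em- libraries (grey) and the 2 Em+ libraries (green), with circles for replicate 1, squares for replicate 2 and a line at the mean. Both Em+ points of Thy1 and Col5a1 lie above both Em- points, Em+ replicate 2 lies apart for Lama5, and the other genes differ little beside their level.

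The levels of the 10 genes per transcript length spanned a wide range in both fractions. In Em- cells the order by mean FPKM (SD, n = 2) was Sparc 56.3 ± 0.306, Lamc1 35.1 ± 0.303, Nid1 21.8 ± 0.525, Col4a1 21.5 ± 1.13, Lamb1 17.9 ± 0.169 and Lama1 11.9 ± 0.245. Col4a2 at 6.90 ± 0.257, Thy1 at 3.17 ± 0.145, Lama5 at 3.03 ± 0.103 and Col5a1 at 1.06 ± 0.087 FPKM followed. Nid1 and Col4a1, and Thy1 and Lama5, could not be separated from each other by their libraries. In Em+ cells Sparc at 47.3 ± 8.97 FPKM was again highest and Col5a1 at 1.69 ± 0.220 again lowest, while Thy1 at 5.25 ± 0.778 lay beside Col4a2 at 5.67 ± 0.837, with overlapping libraries. Between them stood Lamc1 at 31.0 ± 3.06, Nid1 at 17.3 ± 1.41, Col4a1 at 16.8 ± 3.36, Lamb1 at 15.7 ± 2.23, Lama1 at 9.62 ± 0.484 and Lama5 at 3.21 ± 0.451 FPKM. Libraries of Nid1, Col4a1 and Lamb1 overlapped there. The raised genes were thus among the 3 lowest of the 10 in Em- cells.

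Thy1, a marker of neurons, thymocytes and many fibroblasts (chr9:44043384-44048579, plus strand, mm10), was at 20.5 and 19.5 CPM in Em+ replicates 1 and 2 and at 10.5 and 11.2 CPM in Em- replicates 1 and 2. Both Em+ libraries were high and both Em- libraries low, with a gap between them wider than the spread within either. Means were 20.0 ± 0.702 against 10.8 ± 0.477 CPM (SD, n = 2), from 191 to 368 counts per library. On the log2 scale the difference was 0.89 (SE 0.11, edgeR adjusted p = 0.00386), and 0.84 to 0.93 with any 1 library left out. Of all tested genes, 97.8% had a lower fold change. Its counts were the same in all 4 deposited tables, where those of Em- replicate 1 in the RefSeq and Ensembl tables were recomputed from FPKM. No other gene of the GENCODE annotation overlaps Thy1.

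Col5a1, whose chain co-assembles with type I collagen in fibrils (chr2:27886425-28039510, plus strand), was at 26.3 and 37.1 CPM in Em+ replicates 1 and 2 and at 18.6 and 16.5 CPM in Em- replicates 1 and 2. The Em+ libraries were both above the Em- libraries but lay apart from each other, replicate 2 at 1.41 times replicate 1. Means were 31.7 ± 7.66 against 17.5 ± 1.47 CPM (SD, n = 2). On the log2 scale the difference was 0.85 (SE 0.16, edgeR adjusted p = 0.0322), and it stayed called at 1.08 when Em+ replicate 1 was left out and at 0.58 when replicate 2 was. The call was lost with the Ensembl table (edgeR adjusted p = 0.0823) and the ENCODE table (0.0787), which gave the gene 67.5% of its RefSeq counts, and with limma on FPKM (0.117 and 0.137). In the known-gene table, with 35.7% of the RefSeq counts, it fell below the filter and was not tested. The noncoding genes 2810430I11Rik and Gm13372 overlap Col5a1 on the opposite strand. In the Ensembl table their summed counts were 21 and 20 in Em+ against 10 (recomputed from FPKM) and 13 in Em-. Use of strand in counting is not stated in any source used here, so their reads and those of Col5a1 cannot be told apart.

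Col4a1 and Col4a2 encode the chains of the most widespread type IV collagen and start head to head, at chr8:11198423-11312826 on the minus strand and chr8:11312829-11449287 on the plus strand, with 2 bases between the deposited models. Col4a1 was at 258 and 228 CPM in the Em+ libraries and 271 and 291 CPM in the Em- libraries. Col4a2 was at 82.0 and 78.1 CPM in the Em+ libraries and 85.2 and 89.6 CPM in the Em- libraries. For both genes the Em+ libraries were the lower ones without overlap, by a small margin, and neither was called. The log2 fold changes were -0.21 (SE 0.08, edgeR adjusted p = 0.172) for Col4a1 and -0.13 (SE 0.07, edgeR adjusted p = 0.306) for Col4a2. Per length, Col4a2 stood at 0.327 and 0.353 of Col4a1 in Em+ against 0.324 and 0.317 in Em-, FPKM ratios whose lowest Em+ and highest Em- values nearly met.

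The laminin chains of the first laminin to be described, Lama1, Lamb1 and Lamc1, were close to level between the fractions. Lama1 (chr17:67697265-67822645, plus strand), the alpha chain, was at 193 and 211 CPM in the Em+ libraries and 221 and 227 CPM in the Em- libraries. Lamb1 (chr12:31265294-31329639, plus strand), the beta chain, was at 203 and 195 CPM against 203 and 205 CPM. Lamc1 (chr1:153218922-153332786, minus strand), the gamma chain shared by most laminins, was at 516 and 527 CPM against 532 and 524 CPM. Em+ libraries of Lama1 were below both Em- libraries, while those of Lamb1 and Lamc1 overlapped them. The edgeR log2 fold changes were -0.14 (SE 0.07, adjusted p = 0.240), -0.03 (SE 0.06, adjusted p = 0.785) and -0.02 (SE 0.07, adjusted p = 0.897). A missing call does not show that the levels were equal.

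Lama5 (chr2:180176373-180225859, minus strand), the alpha chain of the laminins most widespread in later tissues, was at 67.2 and 96.3 CPM in Em+ replicates 1 and 2 and at 66.6 and 69.7 CPM in Em- replicates 1 and 2. Only Em+ replicate 2 was high, and replicate 1 lay between the Em- libraries. The difference of 0.26 on the log2 scale (SE 0.15, edgeR adjusted p = 0.320) rested on that library. Leaving it out gave -0.022 (adjusted p = 0.820), and leaving out Em+ replicate 1 instead gave 0.50 (adjusted p = 8.79e-05). The FPKM of Lama5 relative to Lama1 was 0.291 and 0.381 in the Em+ libraries against 0.252 and 0.257 in the Em- libraries. The same library was also the highest for the basement membrane proteoglycan Hspg2 (perlecan), at 134 CPM against 41.8 to 55.0, and for the matrix glycoprotein Fn1 (fibronectin), at 757 CPM against 446 to 488. The part of that library in the values of Hspg2 and Fn1 was not tested.

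Nid1 (chr13:13437602-13512275, plus strand), which links laminin to type IV collagen, was at 226 and 237 CPM in the Em+ libraries and 264 and 255 CPM in the Em- libraries. Sparc (chr11:55394159-55420080, minus strand) was at 289 and 259 CPM in the Em+ libraries and 292 and 294 CPM in the Em- libraries. In both genes the Em+ libraries were lower without overlap, for Sparc by less than the gap between the Em+ libraries. The edgeR log2 fold changes were -0.17 (SE 0.06, adjusted p = 0.171) for Nid1 and -0.10 (SE 0.07, adjusted p = 0.438) for Sparc. Relative to Lamc1, the FPKM of Nid1 was 0.552 and 0.566 in Em+ against 0.626 and 0.612 in Em-, so that Nid1 was lower in Em+ beside a laminin chain measured in the same libraries.

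**Figure D2:**
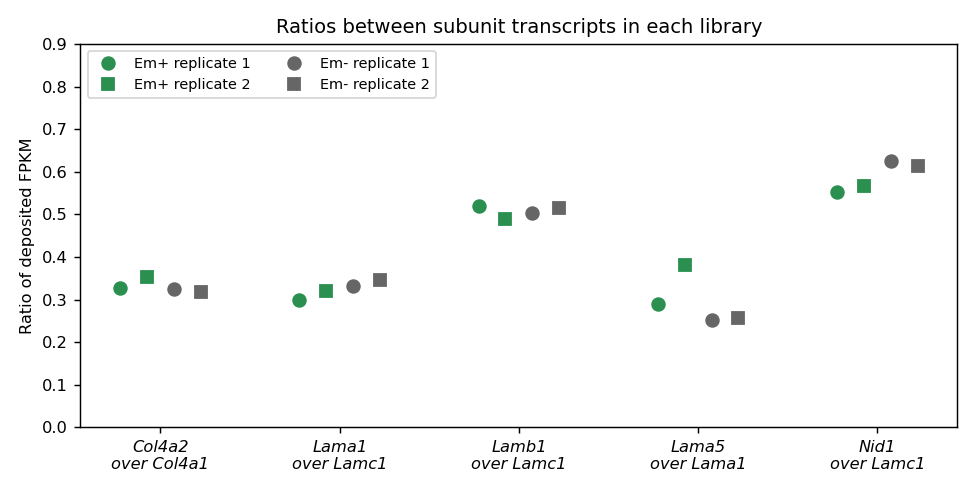
Ratios of deposited FPKM between subunit transcripts (vertical axis, no unit) in each of the 4 libraries, Em+ in green and Em- in grey, replicate 1 as circles and replicate 2 as squares. Nid1 over Lamc1 and Lama1 over Lamc1 are lower in both Em+ libraries, and Lamb1 over Lamc1 overlaps. Lama5 over Lama1 is higher in both, as is Col4a2 over Col4a1 by a narrow gap. In Em+ replicate 1 the CPM of Lama5 lay between the Em- libraries and that of Lama1 below both.

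Ratios between laminin chains were also taken within each library. Lama1 over Lamc1 was 0.300 and 0.321 in Em+ against 0.332 and 0.346 in Em-. Lamb1 over Lamc1 was 0.520 and 0.489 against 0.503 and 0.516. With 2 libraries a fraction, the smallest p an exact permutation test of such a ratio can give is 0.333, so the ratios are given without a test.

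Leaving out either Em+ library changed calls among the basement membrane genes. In such a fit the lone Em+ library is assumed to vary like the Em- libraries. Without Em+ replicate 1, Col4a1 at -0.30, Col4a2 at -0.16, Nid1 at -0.13 and Sparc at -0.18 were called lower. Lama5, at 0.50, was called higher in the same fit. Without Em+ replicate 2, Nid1 at -0.20 and Lama1 at -0.21 were called lower. The number of genes called among 12050 went from 559 to 4992 and 1968 in these fits, so the added calls stand against a larger background. Thy1 and Col5a1 were called in both.

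**Figure D3:**
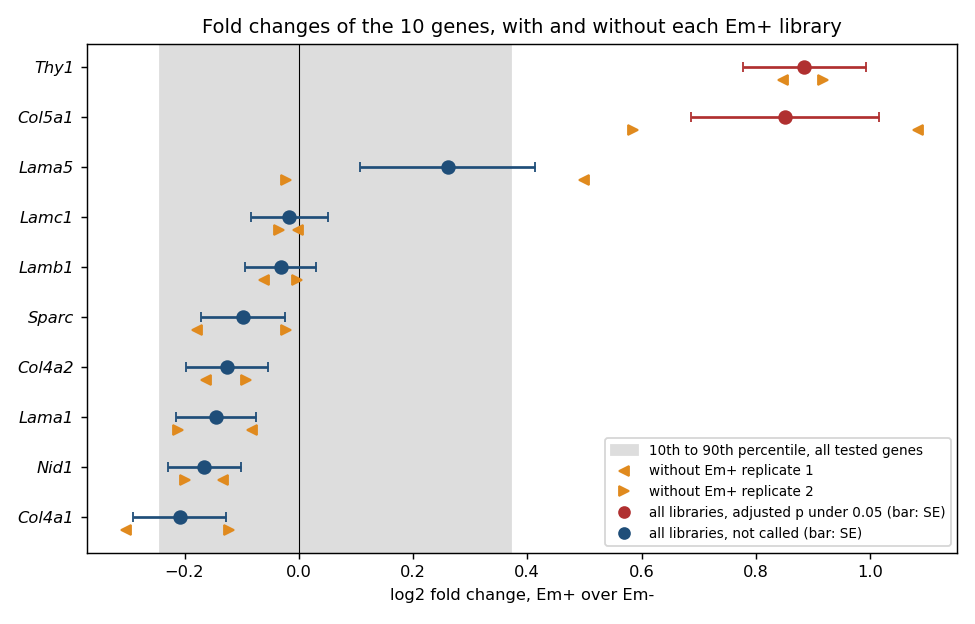
Log2 fold change of Em+ over Em- cells (horizontal axis) for each of the 10 genes from all libraries, with its SE, and orange triangles for the fits without either Em+ library. The grey band spans the 10th to 90th percentile of all tested genes. Thy1 at 0.89 and Col5a1 at 0.85 lie beyond it, and Lama5 changes sign with the library left out.

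The 4 deposited tables differ in transcript models and gave different numbers of reads to some genes. Thy1 and Nid1 had the same counts in all 4, with Em- replicate 1 recomputed from FPKM in the RefSeq and Ensembl tables. In the Ensembl table Lamb1, with 8 transcript models, kept 22.1% of its RefSeq counts, Col4a2, with 3, kept 30.3%, Lamc1 40.8% and Col4a1 50.0%, while Sparc had 126.9%. Levels of one gene against another therefore hold for the RefSeq models only: with the known-gene table, Lamb1 over Lamc1 averaged 0.420 in place of 0.507. Ratios between the fractions moved less, the raw Em+ over Em- count of Lamb1 being 0.883 to 0.909 and that of Col5a1 1.54 to 1.63 over the tables. Genes on the opposite strand also overlap Col4a1 (Gm15418, and Col4a2 itself in the GENCODE annotation), Col4a2 (Gm15419), Lamc1 (Gm8818) and Nid1 (Gm48682). Without a statement on strand their reads cannot be told apart. On the same strand, Gm44716 overlaps Col4a1, Gm38009 overlaps Lamc1 and Mir7005 overlaps Lama5, where strand would not separate them. Mir7005 had 63 to 76 counts a library with the RefSeq models.

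**Figure D4:**
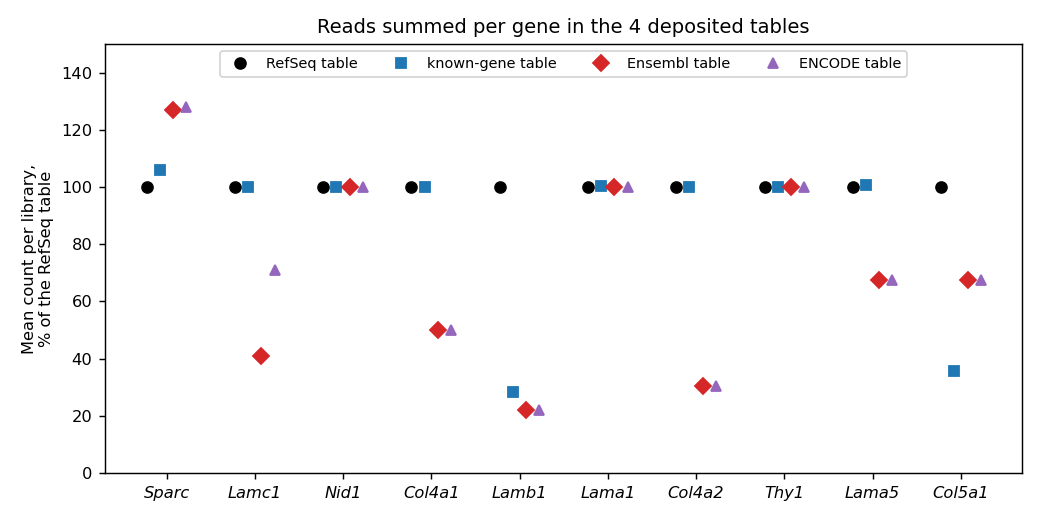
Mean count per library of each of the 10 genes in the known-gene, Ensembl and ENCODE tables as a percentage of its count in the RefSeq table (vertical axis). Thy1 and Nid1 are at 100% in all tables, and Lamb1 is lowest, at 22.1% in the Ensembl table.

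Over 6 lists of other matrix genes and a list of GPI-anchored proteins taken as a comparison for Thy1, 7 of 72 tested genes were called, 9.72% beside 4.64% of all tested genes. Of these calls 6 were higher and 1 lower, beside 460 higher and 99 lower among all tested genes. The higher ones included 2 GPI-anchored proteins. Of 17 tested genes of collagen folding and secretion, P4ha2 rose and Serpinh1 fell. P4ha2, a catalytic subunit of the enzyme that hydroxylates collagen prolines, was at 125 and 143 CPM in the Em+ libraries and 40.1 and 38.4 CPM in the Em- libraries, a difference of 1.77 on the log2 scale (SE 0.09, edgeR adjusted p = 2.40e-05). Serpinh1, the collagen chaperone HSP47, was at 79.9 and 64.1 CPM against 105 and 109 CPM, a difference of -0.57 on the log2 scale (SE 0.11, edgeR adjusted p = 0.0275). Both genes serve collagen in the endoplasmic reticulum, and they went in opposite directions. The median of the list was -0.13.

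Of 12 other tested basement membrane components, Npnt was the gene that rose. Npnt, the integrin ligand nephronectin, was at 24.4 and 25.2 CPM in the Em+ libraries against 15.2 and 16.6 CPM (0.64 on the log2 scale, SE 0.10, edgeR adjusted p = 0.0130). Of 15 matrix receptors Dag1, the laminin receptor dystroglycan, rose, from 148 and 147 CPM in the Em- libraries to 178 and 183 CPM (0.29, SE 0.06, edgeR adjusted p = 0.0429). That call was lost without either Em- library (edgeR adjusted p = 0.436 and 0.384), with DESeq2 (0.0558), with edgeR scaled by library size only (0.0617), with no FPKM filter (0.105) and with filterByExpr (0.0638), at log2 fold changes of 0.23 to 0.29. Of 2 other collagens tested, Col9a2, a cartilage collagen chain, was at 9.87 and 11.0 CPM in the Em+ libraries against 7.04 and 5.43 CPM (0.74, SE 0.16, edgeR adjusted p = 0.0470), and its call was lost without Em- replicate 2 (adjusted p = 0.171).

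Thy1 was set beside 14 tested genes for other GPI-anchored proteins, of which 2 rose, with a list median of 0.01. Prnp, the prion protein, was at 70.3 and 62.9 CPM in the Em+ libraries against 49.0 and 47.0 CPM (0.47 on the log2 scale, SE 0.09, edgeR adjusted p = 0.0245), a call lost without either Em- library (0.0519 and 0.0969). Gpc4, a glypican, was at 12.5 and 16.7 CPM against 9.07 and 8.06 CPM (0.77, SE 0.17, edgeR adjusted p = 0.0465). Of 3 matricellular and interstitial glycoproteins and 9 matrix proteases and inhibitors, edgeR, DESeq2 and limma called 0. At an unadjusted edgeR p under 0.05, 1 glycoprotein gene was higher, as were 2 protease or inhibitor genes, and 1 of the latter was lower. Of all tested genes, 25.3% had such a p in either direction. Fn1 and Fstl1 had log2 fold changes of 0.32 and -0.09 (edgeR adjusted p = 0.369 and 0.609), and Timp1 and Mmp2 of -0.41 and 0.06 (0.0517 and 0.614). Of the 7 called list genes limma on FPKM called P4ha2 alone, and Dag1, Col9a2 and Gpc4 were also lost with each of the Ensembl, known-gene and ENCODE tables. Prnp was lost with the known-gene table (edgeR adjusted p = 0.0657) and was not tested with the Ensembl and ENCODE tables. Serpinh1 was not tested with the known-gene table. Leaving Rn45s out of the library size also ended the calls of Col9a2 and Gpc4 (edgeR adjusted p = 0.0520 and 0.0526).

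**Figure D5:**
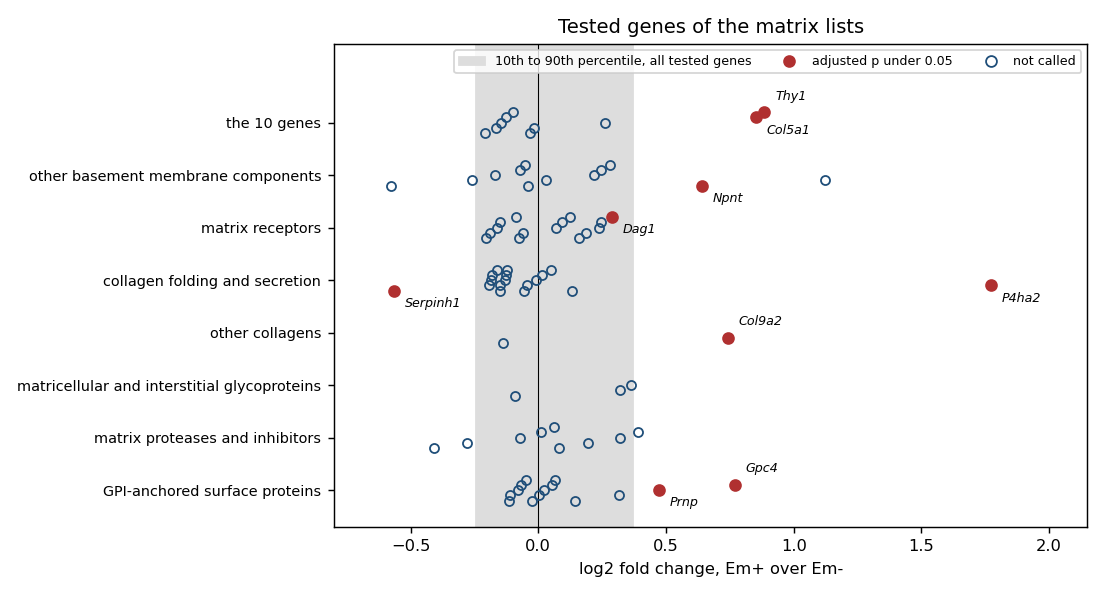
Log2 fold change of Em+ over Em- cells (horizontal axis) of each tested gene in 8 lists (rows, the 10 genes first), with filled red points for an edgeR adjusted p under 0.05 and the 10th to 90th percentile of all tested genes in grey. P4ha2 at 1.77 lies far to the right of the others and Serpinh1 at -0.57 is the one called gene on the left.

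Markers of 7 other cell types were examined, since Thy1, Col5a1 and the basement membrane genes are made by several of them. Of 69 listed genes 61 were in the table and 21 were tested. Of these edgeR and limma called 0 and DESeq2 called 1, Otx2 of primed epiblast, lower in Em+ (edgeR -0.40, adjusted p = 0.0596). At an unadjusted edgeR p under 0.05 were 6 of the 21, beside 25.3% of all tested genes. The primed epiblast and trophoblast lists each had 1 of these higher and 1 lower in Em+. The neural and endothelium lists each had 1 higher, Tubb3 (0.45, edgeR adjusted p = 0.0637) and Tek (0.36, edgeR adjusted p = 0.0622). Of the listed genes in the table, 0 were at 0 in all 4 libraries. The primitive and parietal endoderm list summed to 120 and 121 CPM in the Em+ libraries and 112 and 116 CPM in the Em- libraries. Counts of its regulators are given for Em+ replicates 1 and 2, then Em- replicates 1 and 2. Gata6 had 61, 50, 55 and 55 counts, Sox17 had 51, 46, 31 and 31, and Sox7 had 6, 9, 6 and 11. All of these were below the filter. Gata4 was higher, at 142, 130, 161 and 155 counts, and was tested. The log2 fold change of Gata4 was -0.08 (edgeR adjusted p = 0.733), with overlapping libraries.

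The fibroblast list, 10 of 15 genes in the table and 3 tested, summed to 110 and 108 CPM in the Em+ libraries and 98.1 and 96.9 CPM in the Em- libraries, most of it from Mmp2 at 70.0 ± 1.44 and 67.0 ± 0.587 CPM (SD, n = 2). Its defining collagen genes had few counts: Col1a1 had 45 and 47 in Em+ against 18 and 28 in Em-, Col1a2 18 and 21 against 12 and 8, and Col6a1 64 and 65 against 20 and 18. All 3 were below the filter and outside the count of 0 above, and with no filter Col6a1 was called higher (1.84 on the log2 scale, edgeR adjusted p = 0.00185). Each of these 3 had more counts in each Em+ library than in either Em- library. On scaled CPM, 29.7% of all tested genes were higher without overlap, a set that leaves out these 3. Col6a2, a further collagen gene of the list, had 29 and 40 counts in Em+ against 29 and 14 in Em-. The neural list summed to 67.6 and 63.0 CPM in Em+ against 57.5 and 53.2 in Em-, mesoderm to 20.2 and 23.8 against 17.8 and 17.8, and trophoblast to 82.5 and 82.8 against 78.2 and 78.4. Primed epiblast, at 112 and 101 against 117 and 118 CPM, was lower in Em+, and endothelium, at 274 and 247 against 255 and 251 CPM, overlapped. The part of these cell types in the rise of Thy1 and Col5a1 was not tested.

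The 5 tested genes whose centred log2 CPM over the 4 libraries lay nearest to the mean of the 10 were Tfap2c, Wdr77, Smchd1, Mbd2 and Nsa2. Their log2 fold changes were 0.10 to 0.12 and their edgeR adjusted p ran from 0.278 to 0.578. The mean profile of the 10 averages genes with positive and negative differences, and likeness over 4 libraries is a description only.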

How the data were processed

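RNA-seq of 2 Em+ and 2 Em- libraries was analysed from 4 deposited transcript tables (RefSeq, known-gene, Ensembl, ENCODE). Per the file headers, each holds raw counts and FPKM per transcript, which the authors computed. The submitters' processing notes name Bowtie2 and mm10. Not given in the sources used here are the counting program, its use of strand and its treatment of reads matching several transcripts. For Em- replicate 1, every deposited count in the RefSeq and Ensembl tables is 0. These counts were recomputed from the deposited FPKM, transcript length and library total. For RefSeq, 99.57% of 12803 transcripts then equalled the known-gene count exactly. That comparison is not given for the Ensembl counts of this library. Recomputing the Ensembl counts of the other libraries returned, after rounding, 100.0% of 72703 deposited values.

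Counts were summed per symbol. Symbols averaging 1 FPKM or more over the 4 libraries were tested with edgeR 4.0.16 (TMM, quasi-likelihood, two-sided, Benjamini-Hochberg, threshold 0.05) in R 4.3.3, after tests on simulated data. DESeq2 1.42.0, limma 3.58.1 on log2(FPKM + 1) and log2(FPKM + 0.1), other scalings, filters and tables, a replicate block and leaving out each library were alternatives. The 10 genes and all lists were chosen with earlier results of these data known. Named genes are the 10, the called genes of each list (at most 3 a direction, or the 2 of highest FPKM where none was called), some defining markers of other cell types and the 5 nearest profiles. Hspg2 was named after its values were seen.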

Additional observations from a re-analysis of the deposited data

How the results depend on the processing

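Thy1 was called higher in all 16 alternatives (log2 fold change 0.58 to 0.93), and Col5a1 in 11 of the 15 that tested it (0.38 to 1.08). From 559 genes and 2 of the 10, calls went to 1178 genes without the filter, 1247 with filterByExpr, and 293 and 269 with limma at pseudocounts of 1 and 0.1. Of the 10 genes, 1 was called with limma at either pseudocount and with the Ensembl, known-gene and ENCODE tables. Leaving out 1 library gave 490 to 4992 genes and 2 to 7 of the 10. Lama5, at 0.26 with all libraries, ran from -0.022 without Em+ replicate 2 to 0.50 without Em+ replicate 1. List genes called went from 7 to 18 without the filter, where more genes were tested. Lamb1 over Lamc1 was 0.420 with the known-gene table. With the replicate number as a block, 1552 genes were called, and 2 of the 10. Deviations of same-numbered libraries from the mean of their fraction had a correlation of 0.0161 across genes. With 2 libraries a fraction, this cannot show whether same-numbered libraries share a culture or a sort. FPKM is scaled to all reads, and limma on it moved the median of all genes to -0.14 and -0.16. The cause of the other changes was not tested.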

Other observations

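Of the matrix genes below the filter of a mean FPKM of 1, 10 were called higher in Em+ cells when it was left off. Without the filter, edgeR called 18 of 136 list genes (13.2%, beside 5.95% of all 19797 symbols). The 10 called genes that the filter had removed were all higher in Em+. Calls leaned the same way over all genes, with 887 of 1178 higher in Em+ in that fit. That background joins genes above and below the filter, and the share among those below it is not given here. The choice of these names followed from their values. Spock3, a proteoglycan related to Sparc, had 92 and 81 counts in Em+ against 5 and 4 in Em- (log2 fold change 4.31, edgeR adjusted p = 1.88e-05). Ddr2, a receptor kinase for fibrillar collagen, had 255 and 253 against 40 and 43 counts (2.69, edgeR adjusted p = 3.92e-06).

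The other 8 were the collagen chains Col12a1 (2.24) and Col6a1 (1.84), the latter also on the fibroblast marker list, the fibrillins Fbn2 (1.43) and Fbn1 (1.29), Thbs1 (1.31), the basement membrane genes Fras1 (1.27) and Hmcn1 (1.24), and the protease Adamts1 (1.22), with the log2 fold change in parentheses. Col12a1 had 75 and 65 counts in the Em+ libraries against 16 and 15, and Thbs1 156 and 145 against 59 and 69. Timp1 (-0.47) and Tinagl1 (-0.63) were called lower in that fit.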
